A study of Rattus norvegicus with 24 samples.

Results

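Lung gene expression in neonatal rats given desisobutyryl ciclesonide was compared with that in pups given vehicle, in the 4 lung libraries whose titles name the drug and the 4 whose titles name vehicle, 8 of the 24 libraries of the study. All pups were wild-type Sprague Dawley rats, nursed by their mothers, and received 5 daily subcutaneous injections from postnatal day 1. The drug group received 1.25 mg/kg desisobutyryl ciclesonide, and the vehicle group received 2.5% ethanol. Whole lung was snap frozen on postnatal day 6, 24 hours after the last injection. The other 16 libraries came from lungs of pups given 0.1 mg/kg dexamethasone and from livers of all 3 treatment groups. The 4 dexamethasone lung libraries enter the estimate of spread, and all 16 are used for values set beside those of the comparison. The labels give neither litter nor sex, so p-values measure the spread between these libraries. A whole-lung library mixes all cell types of the organ, and a change in the number of cells of a type cannot be told apart from a change in RNA per cell.

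Desisobutyryl ciclesonide is the active form of ciclesonide, a glucocorticoid given as an inactive ester that tissue esterases cleave. Glucocorticoids bind the glucocorticoid receptor, which moves to the nucleus and raises or lowers the transcription of target genes. In the perinatal lung they are known for hastening the maturation of the surfactant system and for thinning the septa, and in the rat the first postnatal weeks are the period in which alveoli form by septation. The design asks which genes this drug changes in lung at this age. The files give genes as Ensembl identifiers without names and 0 of the 30560 identifiers matched the gene reference at hand, so pathways, cell type markers and promoters could not be looked up, and genes are described by their level, their tissue and their change.

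Libraries held 18582331 to 23078082 gene counts in the vehicle group and 15839958 to 23195805 in the drug group, with 18737 to 19056 and 18527 to 18819 genes detected. The tissue label could be checked only against the study's livers. The 1294 genes at least 16-fold higher in dexamethasone lung than in dexamethasone liver took 15.3% to 16.4% of the counts in vehicle lung and 18.6% to 21.3% in drug lung, against 0.529% to 0.700% in the vehicle and drug livers. The deposited file names number the drug libraries in a series apart from all vehicle and dexamethasone libraries. Some read categories also set the drug libraries apart from the vehicle and dexamethasone lung libraries. Unaligned reads made up 1.08% ± 0.158 (SD, n = 4) of entries with the drug, 2.64% ± 0.287 with vehicle and 1.93% to 3.50% in the 4 dexamethasone lung libraries. Aligned reads in no annotated gene made up 13.4% ± 0.241 with the drug, 16.2% ± 0.556 with vehicle and 18.8% to 21.0% with dexamethasone. This category thus also differed between vehicle and dexamethasone, which share the other series. Reads with several alignments were more frequent with the drug, 3.78% ± 0.558 against 2.90% ± 0.189 with vehicle and 2.59% to 2.85% with dexamethasone. These 3 of the 5 categories did not overlap between the drug and vehicle groups (exact two-sided permutation p = 0.0286, the smallest possible with 4 against 4, and adjusted p = 0.0476). After adjustment 0 categories passed without vehicle library 2, 3 or 4 or without drug library 2, against 4 categories without vehicle library 1 and 3 without drug library 1, 3 or 4. Library series and drug cannot be told apart in any value below.

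The drug and vehicle libraries separated on the first principal component of log2 values, which held 45.4% of their variance, with vehicle between -47.0 and -29.8 and the drug between 15.9 and 70.8. Drug library 4 lay farthest out at 70.8, followed by drug library 3 at 44.2, while drug libraries 1 and 2 stood at 21.4 and 15.9. The second component, with 21.8%, did not follow treatment. Vehicle library 3 (-51.5) and drug library 4 (-36.1) lay at one end of it and drug library 2 (44.4) at the other. Vehicle library 3 also held the largest number of genes in which 1 library of the vehicle group stood apart by Dixon's criterion, 555 of 16108, against 137 to 172 in the other vehicle libraries. In the drug group these numbers were 341 for library 4, 291 for library 2, and 150 and 122 for libraries 1 and 3. In all, 6.34% of genes had such a library in the vehicle group and 5.61% in the drug group. Chance alone marks about 1 group in 20 by this criterion, so most of these genes need not be real outliers.

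Desisobutyryl ciclesonide changed 3884 of the 16108 genes tested, 24.1%, at an adjusted p under 0.05 in edgeR's quasi-likelihood test. Of these, 1895 genes were higher with the drug (11.8% of those tested) and 1989 were lower (12.3%). Most changes were small. Log2 changes had a median of 0.71 in the higher genes, with the 90th percentile at 1.57, and of -0.61 in the lower genes, with the 10th percentile at -1.94. Standard errors had medians of 0.16 and 0.14. A fitted change of at least 2-fold was seen in 498 genes that rose and 557 that fell. When the test itself asked for a change beyond 2-fold, 133 genes passed, 0.826% of those tested, and falls outnumbered rises by 96 to 37. The levels of the drug and vehicle libraries did not overlap in 89.3% of the genes that rose and 94.4% of those that fell, against 33.2% of all genes tested. As a description of genes chosen by these calls, the 1895 higher genes made up 13.6% ± 0.678 (SD, n = 4) of gene counts in vehicle lungs, 21.7% ± 1.69 in drug lungs and 24.3% ± 1.00 in dexamethasone lungs. The 1989 lower genes made up 12.7% ± 0.310 (SD, n = 4) of gene counts in vehicle lungs, 8.14% ± 0.685 in drug lungs and 7.78% ± 0.194 in dexamethasone lungs.

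**Figure D1:**
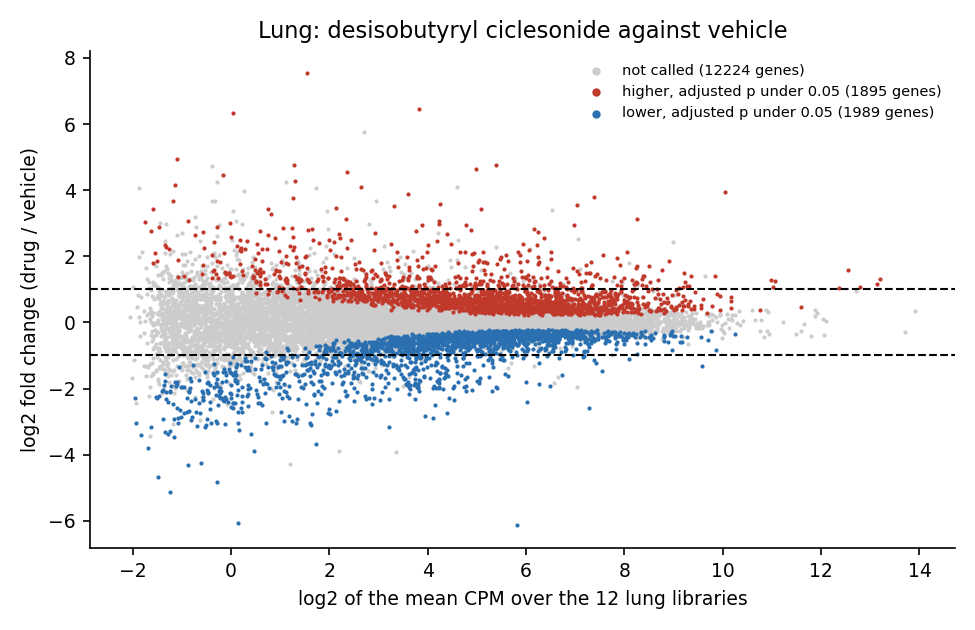
Fitted log2 fold change of desisobutyryl ciclesonide over vehicle in lung (vertical axis) against the log2 of the mean CPM over the 12 lung libraries (horizontal axis), 1 point per gene for 16108 genes. Red and blue points are the 1895 higher and 1989 lower genes at an adjusted p under 0.05, grey points were not called, and dashed lines mark 2-fold. Most called genes lie between the dashed lines; the horizontal position itself depends on the drug and dexamethasone libraries.

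Among the 12224 genes that were not called, the 95% interval of the log2 change reached a median of 0.38 to either side. For 70.9% of them that interval lay inside 2-fold either way, while for 3553 genes a change of 2-fold remained within the interval. A miss of the threshold therefore does not show that a gene was unaffected.

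The number of calls fell whichever library was left out. Leaving out 1 of the 8 libraries at a time gave 2564 to 3366 calls, the fewest without drug library 3. Each of these fits also has a smaller group, and the part of group size in the loss was not tested. The 2174 genes that were called in the same direction in all 8 of these fits and in the full fit made up 56.0% of the calls, 1078 higher and 1096 lower. Their median absolute log2 change was 0.79, and 767 of them changed at least 2-fold. The other 1710 called genes had a median of 0.50, and 288 changed at least 2-fold. Without the pair of libraries at one end of the second component, vehicle library 3 and drug library 4, 1768 genes were called, of which 1722 were among the calls of the full fit in the same direction.

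Among genes that reached 2 CPM (counts scaled to a common library size) in the higher group and did not overlap between the groups, 1620 rose and 1731 fell, and the pair with the largest rises and the pair with the largest falls are given here in every library. ENSRNOG00000065108 stood at 0.321, 0.283, 0.204 and 0.575 CPM in vehicle libraries 1 to 4 and at 14.0, 9.75, 39.5 and 61.8 CPM in drug libraries 1 to 4. The groups were far apart, and within the drug group libraries 3 and 4 were higher than libraries 1 and 2. Its log2 change was 6.44 (SE 0.80, adjusted p = 0.000458). It rested on 31 counts over the vehicle libraries and 2098 over the drug libraries. In the dexamethasone lungs it stood between 6.26 and 22.3 CPM. The gene was nearly silent in liver, with 0 counts over the 4 vehicle livers and 2 over the 4 drug livers.

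ENSRNOG00000032871 stood at 0.871, 1.18, 0.255 and 1.89 CPM in the vehicle libraries and at 14.4, 6.02, 33.9 and 63.6 CPM in the drug libraries. Drug libraries 3 and 4 were again above libraries 1 and 2, and every drug library was above every vehicle library. Its log2 change was 4.76 (SE 0.85, adjusted p = 0.00385), and 4.06 without drug library 4. With dexamethasone it ranged from 62.4 to 170 CPM in lung. In liver the drug and vehicle libraries overlapped, at 2.30 to 4.72 and 2.18 to 3.29 CPM (log2 change 0.22, adjusted p = 0.924).

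ENSRNOG00000008478 stood at 3.35, 1.89, 1.43 and 1.97 CPM in the vehicle libraries, and was almost lost with the drug, with 0, 1, 0 and 1 counts in drug libraries 1 to 4. The 189 counts over the vehicle libraries against 2 over the drug libraries gave a ratio of 82.4 (95% exact interval 22.5 to 686, counting error only). Its fitted log2 change was -6.06 (SE 0.73, edgeR adjusted p = 0.000165). The dexamethasone lungs kept it at 0.395 to 1.74 CPM, a log2 change against vehicle of -0.93 that did not pass the test (adjusted p = 0.112). ENSRNOG00000030738 stood at 3.07, 1.79, 2.04 and 1.93 CPM with vehicle and at 0.136, 0.177, 0.248 and 0 CPM with the drug. Its log2 change was -3.89 (SE 0.54, adjusted p = 0.000426), from 192 counts to 11. With dexamethasone it ranged from 1.08 to 2.72 CPM (log2 change -0.30, adjusted p = 0.570), and the vehicle and dexamethasone libraries overlapped. In liver the summed counts were 34 over the vehicle libraries, 6 over the drug libraries and 50 over the dexamethasone libraries (drug against vehicle log2 change -2.50, adjusted p = 0.0670). Both falls are thus low in the separately numbered drug libraries and present in the vehicle and dexamethasone libraries of the other series. Both drugs were set against the same vehicle libraries, dexamethasone changed 55.6% of the genes tested, and the doses differ, so the values stand side by side without a comparison of the drugs. The changes of these 4 genes kept their direction and stayed past the threshold under all 16 alternative fits. Without vehicle library 3 and drug library 4 the fold changes of the first 3, not logged, moved by more than 1.5-fold. Their log2 changes were then 5.70 for ENSRNOG00000065108, 3.76 for ENSRNOG00000032871 and -6.77 for ENSRNOG00000008478.

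**Figure D2:**
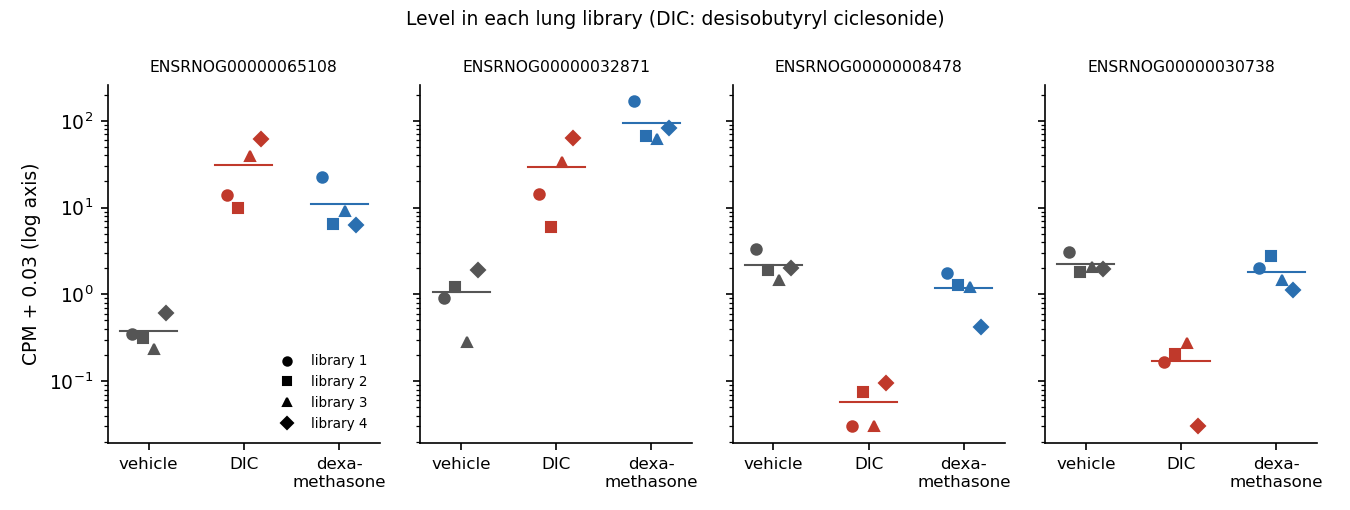
Level of the 4 named genes in each lung library, as CPM + 0.03 on a log axis, for vehicle, desisobutyryl ciclesonide (DIC) and dexamethasone; marker shapes give the library number and bars the group mean. The first 2 genes are high in all drug libraries and highest in libraries 3 and 4, and the last 2 are low in the desisobutyryl ciclesonide libraries alone.

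The size of the response differed between the drug libraries, also among genes whose calls did not use the library in question. Genes were called without 1 drug library, and their change was then read in that library against the vehicle mean. The left-out library changed in the called direction in 98.9%, 97.0%, 99.6% and 99.4% of the called genes for drug libraries 1 to 4, against 82.1%, 77.1%, 84.6% and 80.1% of all genes tested. The vehicle libraries are shared by the calls and the reading, which favours the same direction. The median ratio of the change in the left-out library to that in the remaining 3 was 0.733 and 0.792 for drug libraries 1 and 2, and 1.06 and 1.16 for drug libraries 3 and 4. The genes were called from the remaining 3, which favours larger changes there and so lowers the ratio for any left-out library. Genes that rose had a median log2 change of 0.56 and 0.58 in libraries 1 and 2 and of 0.82 and 0.80 in libraries 3 and 4. Genes that fell had medians of -0.49 and -0.55 against -0.71 and -0.80. When a vehicle library was left out instead, the ratios lay between 0.887 and 1.08, so vehicle libraries differed less in this measure. Drug libraries 3 and 4 are also the shallowest, with 16399768 and 15839958 gene counts against 21943070 and 23195805 in libraries 1 and 2. The part of depth in the ratio was not tested. Some genes that were on in some animals and off in others, described at the end, divided the drug group likewise. An example stood at 0, 0, 5.65 and 4.91 CPM in drug lungs 1 to 4, and at 0, 0, 4.19 and 4.24 CPM in drug livers 1 to 4. The part of such differences between animals in the ratio was not tested. In liver, reading the change in a left-out library gave ratios of 0.753, 0.807, 0.863 and 0.966 for the drug livers numbered 1 to 4. These ratios came from 318 to 475 called genes.

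**Figure D3:**
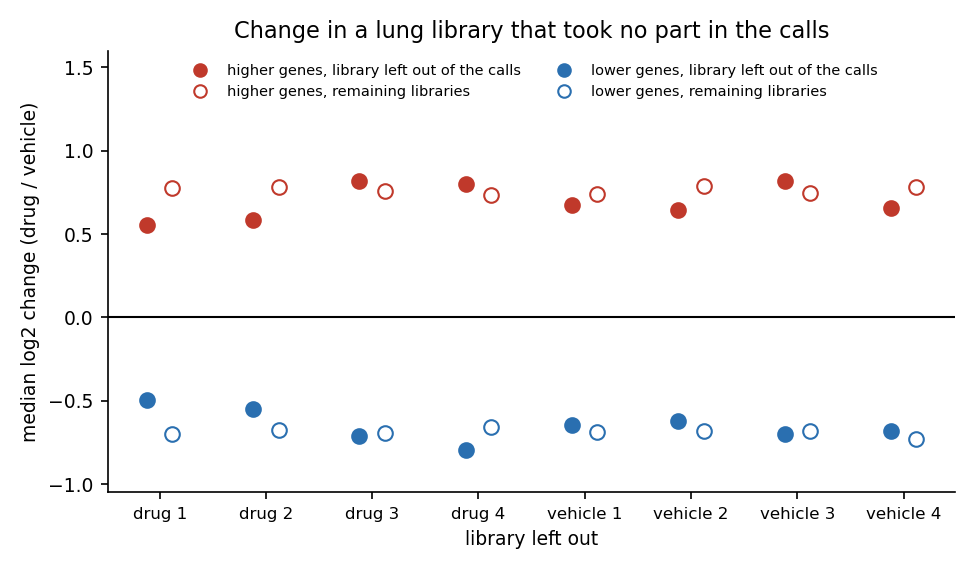
Median log2 change of called genes (vertical axis) in a lung library that was left out of the calls (filled circles) and in the remaining libraries (open circles), for each of the 4 drug and 4 vehicle libraries (horizontal axis); red circles are genes called higher and blue circles genes called lower. Filled circles lie nearer to zero than open ones for drug libraries 1 and 2, and beyond them for drug libraries 3 and 4.

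Rises were most frequent among genes that the lung expresses and the liver does not. Of 179 genes with a mean of at least 10 CPM over the 12 lung libraries and under 0.1 CPM over the 12 liver libraries, called lung-restricted here, 77 rose (43.0%) and 4 fell (2.23%), beside 11.8% and 12.3% of all genes tested. Their median log2 change was 0.70, against -0.01 over all genes. CPM does not correct for transcript length, which can move genes across both limits of the class. The drug libraries also count toward the mean that sets the class, which favours rises. With the lung level taken from the vehicle libraries alone, which favours falls, 45 of 140 rose and 10 fell, with a median of 0.50, or 0.25 without drug library 4. The next class, 489 genes with 0.1 to 1 CPM in liver, showed 134 rises and 32 falls (27.4% and 6.54%, median 0.29). With the level from vehicle it showed 100 rises and 50 falls among 452 genes (22.1% and 11.1%). The median was then 0.11, and the share of falls was near that of all genes. Under all 16 alternatives rises outnumbered falls in both classes as set by the 12 lung libraries, a choice that favours rises. The same held for the lung-restricted class with the level from vehicle. For the next class the level from vehicle was not run under the alternatives. The number of lung-restricted genes that rose was lowest without vehicle library 3 and drug library 4, at 37 of 179 (20.7%, beside 5.55% of all genes in that fit). Without drug library 3 it was 51. In the next class the former fit gave 82 rises and 14 falls.

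Summed over the 179 lung-restricted genes, vehicle libraries 1 to 4 held 16185, 16768, 16378 and 15407 CPM, and drug libraries 1 to 4 held 31527, 22719, 36811 and 45679 CPM. The groups did not overlap, and the drug libraries spread far more widely than the vehicle libraries, with library 2 the lowest and library 4 the highest. The dexamethasone libraries lay close together, between 37681 and 40006 CPM. Choosing genes by a mean that includes the drug libraries can enlarge this difference. The 140 genes chosen by vehicle level summed to 16041 ± 551 CPM with vehicle (SD, n = 4) and to 31055, 22394, 36155 and 44181 CPM in drug libraries 1 to 4, so the groups did not overlap here either. The 10 of them most abundant in vehicle held most of that sum, 11946 ± 825 CPM with vehicle and 26707 ± 6699 CPM with the drug, and 7 of them were called higher and 0 lower. The other 130 went from 4095 ± 821 to 6740 ± 2897 CPM, with 38 called higher and 10 called lower. For these, drug library 2 with 4381 CPM lay below vehicle library 3 with 5260 CPM, so the groups overlapped.

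**Figure D4:**
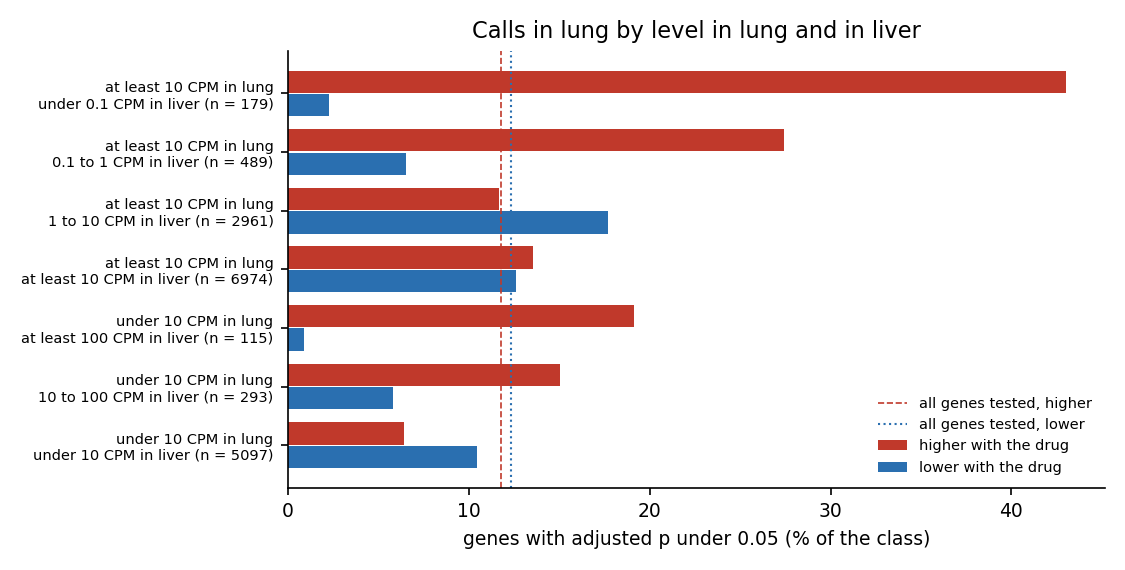
Share of genes called higher (red) and lower (blue) with desisobutyryl ciclesonide in lung, for 7 classes set by mean CPM over the lung libraries and over the liver libraries; the dashed and dotted lines give the shares over all genes tested, 11.8% and 12.3%. Rises stand out in the classes expressed in lung and scarce in liver, and falls in the class with 1 to 10 CPM in liver.

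Whether abundant genes leaned upward depended on which libraries set the level. The mean of the 12 lung libraries is itself raised by the drug for genes that rise. By that mean, 14 of 54 genes of at least 1000 CPM rose (25.9%) and 1 fell (1.85%). Over all genes tested, 11.8% rose and 12.3% fell. Among 2221 genes between 100 and 1000 CPM, 438 rose (19.7%) and 218 fell (9.82%). The mean of the vehicle libraries alone favours falls among abundant genes and rises among scarce ones. By the vehicle mean, 9 of 58 rose (15.5%) and 4 fell (6.90%) at the top. Among the 2094 genes between 100 and 1000 CPM, rises and falls were equal at 284 each (13.6%). Under 1 CPM the order turned with the level used. By the mean of the 12 libraries, 42 of 1430 genes rose (2.94%) and 119 fell (8.32%). By the vehicle mean, 132 of 1639 rose (8.05%) and 72 fell (4.39%). Each of these shares is under that of all genes tested. Between 10 and 100 CPM falls outnumbered rises either way, by 1219 to 1050 (14.6% and 12.6%) and by 1277 to 1034 (15.2% and 12.3%). The shares of rises there were near that of all genes tested. Scarce genes were called only for large changes. The median standard error of the log2 change was 0.59 under 1 CPM and 0.11 between 100 and 1000 CPM, and 100% of the called genes under 1 CPM changed at least 2-fold, against 11.9% between 100 and 1000 CPM.

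Falls were most frequent among genes of low level in liver, at 1 to 10 CPM. Of 2961 genes with at least 10 CPM in lung and 1 to 10 CPM in liver, 524 fell (17.7%) and 345 rose (11.7%). Of all genes tested, 12.3% fell and 11.8% rose. The median log2 change of the class was only -0.06. Falls outnumbered rises in it under all 16 alternatives, by 254 to 174 without vehicle library 3 and drug library 4. With the level from vehicle, which favours falls, 619 of 3015 fell (20.5%) and 282 rose (9.35%), with a median of -0.12. Genes of at least 10 CPM in both tissues, 6974 in all, were near the shares of all genes, with 946 rises (13.6%) and 878 falls (12.6%).

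Genes abundant in liver and scarce in lung had a median change above 0 in the drug lungs. Their excess of called rises was slight or absent in some fits. Of 115 genes under 10 CPM in lung and at least 100 CPM in liver, 22 rose (19.1%, beside 11.8% of all genes) and 1 fell, and the log2 changes had a median of 0.77. They summed to 237 to 297 CPM in the vehicle libraries, and to 338, 652, 299 and 349 CPM in drug libraries 1 to 4. Without drug library 2, 12 of 113 rose (10.6%, beside 10.3% of all genes in that fit) and 2 fell, with a median of 0.47. Without vehicle library 3 and drug library 4, 6 of 114 rose (5.26%, beside 5.55%). With limma-voom 14 rose (12.2%, beside 10.7%). Without vehicle library 1, 2, 3 or 4 the class shares were 13.0%, 11.3%, 10.4% and 11.4%, beside 8.21% to 8.86% of all genes. With DESeq2 the class share was 27.8% (beside 10.5%), and with the replicate block 15.7% (beside 11.4%). Rises outnumbered falls in the class under all 16 alternatives. With the lung level from vehicle alone, which favours rises among scarce genes, 33 of 133 rose (24.8%) and 1 fell, with a median of 0.82. The 20 genes most abundant in dexamethasone liver among those at least 16-fold lower in dexamethasone lung were followed library by library. They summed to 280 to 386 CPM in the vehicle lungs, to 641, 1181, 668 and 716 CPM in drug lungs 1 to 4, and to 990 to 1254 CPM in the dexamethasone lungs. Of these 20 genes, 15 had their highest drug value in library 2. The most abundant of them stood at 218 CPM in drug library 2 and 24.6 CPM in drug library 1, at 0.993 and 1.86 CPM in drug libraries 3 and 4 and at 0.236 to 7.98 CPM with vehicle, against 88378 CPM in the drug livers. Without drug library 2, 6 of the 20 genes were called higher in place of 10, and their median log2 change was 1.20 in place of 1.99. The summed level in drug libraries 1, 3 and 4 was still above that of every vehicle library. The part of liver RNA in lung libraries was not tested.

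**Figure D5:**
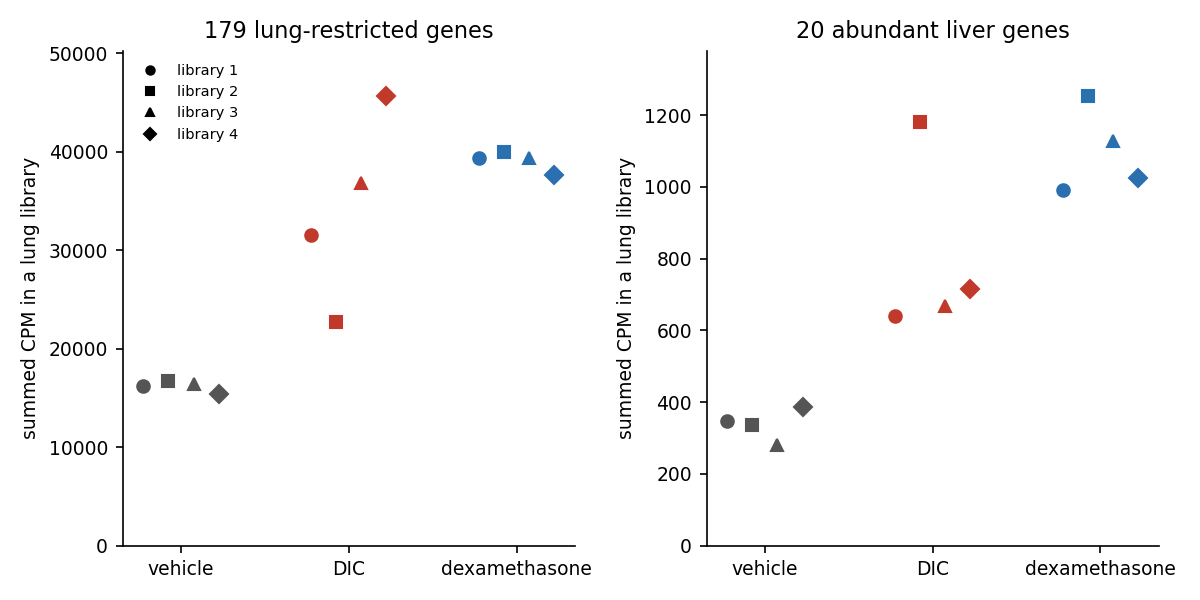
Summed CPM of the 179 lung-restricted genes (left) and of the 20 abundant liver genes (right) in each lung library, for vehicle, desisobutyryl ciclesonide (DIC) and dexamethasone; marker shapes give the library number and both axes start at 0. Drug libraries range from 22719 to 45679 CPM on the left, and drug library 2 stands apart at 1181 CPM on the right.

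In the livers given the same drug, 4.52% of genes tested passed the same test, and 13245 genes were tested in both tissues. Of the 334 genes that fell in liver, 167 also fell in lung, as did 1804 (13.6%) of all genes tested in both, and the 167 are 9.26% of the lung falls tested in liver. Their median log2 change was -1.13 in lung and -1.68 in liver. Of the 287 genes that rose in liver, 100 also rose in lung, as did 1570 (11.9%) of all genes tested in both, and the 100 are 6.37% of the lung rises tested in liver. Another 20 genes were called in opposite directions, 16 of them higher in lung. Genes called in lung had median log2 changes in liver of 0.20 for rises and -0.23 for falls, beside -0.01 over all genes tested in both. The difference between the tissues was not tested.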

How the data were processed

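RNA was extracted with Trizol, selected for polyadenylated transcripts and made into directional dUTP libraries, per the labels. The authors trimmed, aligned and counted reads with cutadapt, HISAT2 and HTSeq on mRatBN7.2, per the submitters' processing notes. Versions, annotation and the strand setting are not given in the sources used here, so genes that overlap, lie antisense or share near-identical sequence are uncertain. The deposited files hold raw counts for 30560 identifiers and 5 closing rows of unassigned reads, 22.6% to 27.7% of entries in the 8 libraries, which were kept out of library sizes.

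The counts were fitted in R 4.3.3 with edgeR 4.0.16. The default expression filter, TMM scaling and a robust quasi-likelihood fit were applied to the 12 lung libraries with 1 mean per treatment, and the drug was compared with vehicle at a Benjamini-Hochberg adjusted p under 0.05 over all genes. Changes beyond 2-fold were tested with glmTreat. CPM values use TMM-scaled library sizes, and log2 CPM has a prior count of 2. Alternatives were DESeq2 1.42.0, its size factors in edgeR, limma-voom (limma 3.58.1), no filter, the 8 libraries alone, a replicate block and leaving out each library. Added after seeing the data were the fits without dexamethasone libraries 3 and 4, without vehicle library 3 and drug library 4, and classes with the lung level from the vehicle libraries alone. The fit was tested on simulated data.

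The comparison, the naming rule and the 36 gene lists were chosen with earlier results of these data known. The rule names the largest changes among called genes whose groups do not overlap and whose higher group averages 2 CPM or more. For want of symbols it was shortened to 2 genes each way, and the lists were not run. The classes by lung and liver level were formed after seeing the data.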

Additional observations from a re-analysis of the deposited data

Results flagged for a closer look

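Among the library totals, read categories, class sums and named genes checked, 2 sums had 1 library standing apart from the other 3 of its group, and both concern drug library 2. The summed level of the 20 abundant liver genes was 1181 CPM there, with the other drug lungs between 641 and 716 CPM. The summed level of the liver-abundant genes that are low in lung was 652 CPM, with the other drug lungs between 299 and 349 CPM. Chance marks about 1 group in 20 in this way.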

How the results depend on the processing

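The 16 alternatives gave 1768 to 5031 calls, and no gene called in the full fit was called in the opposite direction in any of them. DESeq2 called 4559 genes and the 8 libraries alone 5031. Leaving out 1 library gave 2564 to 3366 calls, with 820 to 1108 of at least 2-fold. Leaving out vehicle library 3 and drug library 4 together gave 1768 calls, 662 of them at least 2-fold. The cause was not tested beyond the loss of 2 libraries. With the replicate block 3697 genes were called. Same-numbered vehicle and drug libraries did not deviate together (r across 16108 genes from -0.12 to 0.13), so the numbers were not taken to pair them. The number of read categories past the threshold was 3, or 4 with gene counts as the denominator, and lay between 0 and 4 when 1 library was left out. With 3 against 4 the smallest exact p is still 0.0286, and the number falls to 0 where fewer categories reach it. Depth limits the low genes, whose intervals often include 2-fold, and no fit can part the drug from its library series. The alternatives planned for gene list counts were not run, since the lists need gene symbols.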

Other observations

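A few genes were on in some animals and off in others, in lung and liver libraries of the same number alike. The pattern was noticed in the data, and the limits were then set to describe it: a gap of at least 8-fold between the on and off lung libraries, the same division in liver with a gap of at least 2.83-fold, and a division that does not follow treatment, after adding 0.1 CPM. Of 16108 genes, 11 met them, in 7 patterns. The pattern shared by most genes, 4, was on in vehicle libraries 1, 2 and 3, in dexamethasone libraries 2 and 4 and in drug libraries 1, 2 and 3, with lung gaps of at least 159.5-fold. None of these 4 genes was called between drug and vehicle (lowest adjusted p = 0.797), and each was on in 3 of 4 libraries of either group.

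Of the 11 genes, 1 was called. It was singled out after its values were seen, and stood at 76.0, 1.27, 118 and 131 CPM in vehicle lungs 1 to 4, at 64.1, 0.794, 147 and 131 CPM in dexamethasone lungs and at 0.997, 1.73, 0.558 and 1.26 CPM in drug lungs. In liver it stood at 38.4, 0.365, 88.4 and 73.5 CPM with vehicle, at 41.6, 0.462, 80.8 and 99.2 CPM with dexamethasone and at 0.640, 0.645, 0.766 and 0.759 CPM with the drug. The library numbered 2 was thus low in both tissues for vehicle and dexamethasone, and all 4 drug libraries were low in both tissues. Its log2 change in lung was -6.13 (edgeR adjusted p = 0.0249), although the vehicle and drug groups overlap.

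Across the 16 pairs of a vehicle and a drug lung library, the deviations from the group means across 16108 genes correlated most for vehicle library 3 with drug library 4 (r = 0.42), and least for vehicle library 3 with drug library 2 (r = -0.34). Genes are not independent replicates, and these values are a description.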
